A study of Mus musculus with 57 samples.

Results

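Translation initiation factors are the proteins that bring a ribosome to the start codon of an mRNA. The 56 genes described here are the symbols of the *Eif* family, with a number after the stem and pseudogenes left out, that stood in the count tables of both an acute and a chronic study of doxorubicin (Doxo) in the mouse heart, out of 25416 symbols that the tables shared. They were chosen by name and not by any measured value, though with earlier results of these data known. Of the 56, 54 had enough counts to be tested in each study. The long noncoding RNA *Eif2c5* and the germ-cell cap-binding gene *Eif4e1b* were not tested, with at most 2 counts in any acute heart and at most 1 in any chronic heart.

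All hearts came from wild-type male C57BL/6J mice. In the acute study, 14 control mice (Ctrl) received vehicle, 13 mice (Doxo) received 1 intraperitoneal injection of 20 mg/kg doxorubicin, and 13 mice (Doxo-NMN) received the same injection plus 180 mg/kg/day of nicotinamide mononucleotide (NMN, a precursor of NAD+), started 5 days earlier. These mice were bought at 9 weeks of age, and the hearts were taken on day 5. In the chronic study, mice of 14 to 16 weeks received vehicle (5 Ctrl), 5 injections of 4 mg/kg doxorubicin, 20 mg/kg in total (6 Doxo), or the same with 500 mg/kg/day NMN in the drinking water (6 Doxo-NMN), and hearts were taken on day 60. The studies asked what doxorubicin does to the heart and whether NMN changes it. The numbers of mice given here are those of the sequenced hearts, taken from animals that lived to the day of collection. In the acute study the paper reports more deaths with Doxo alone than with added NMN. In the chronic study this difference was not significant. The part of survival in the differences between groups was not tested.

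In the canonical route, eIF2 carries the initiator tRNA to the small ribosomal subunit, where eIF1, eIF1A, eIF3 and eIF5 help to find the start codon. The guanine nucleotide exchange factor eIF2B recharges eIF2 with GTP, and stress kinases that phosphorylate the alpha subunit of eIF2 turn eIF2 into an inhibitor of eIF2B. The mRNA itself is brought by eIF4F, made of the cap-binding protein eIF4E, the scaffold eIF4G and the helicase eIF4A, and the eIF4E-binding proteins compete with eIF4G for eIF4E. Heart muscle adjusts this machinery when it grows, starves or is stressed.

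Several of these genes share a short promoter sequence, and their RNAs did not all move alike after Doxo, so the promoters of 4 of them are shown before the values. The sequences are RefSeq's, of the GRCm38.p6 build, each an 80-base window read along the gene's own strand, with the E-box CACGTG in capitals. *Eif4a1* (eIF4A helicase) and *Eif5a* (a factor that helps ribosomes through difficult peptide bonds) rose after acute Doxo, as did *Eif3f* of the eIF3 complex, whereas *Eif4g1* (the eIF4G scaffold) did not pass the test. The windows lie at chr11:69672570-69672649 on the minus strand, chr11:69921418-69921497 on the minus strand, chr7:108934310-108934389 on the plus strand and chr16:20672636-20672715 on the plus strand, in the order below.
Eif4a1: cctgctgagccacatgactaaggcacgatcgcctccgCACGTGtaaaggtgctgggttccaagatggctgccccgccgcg
Eif5a: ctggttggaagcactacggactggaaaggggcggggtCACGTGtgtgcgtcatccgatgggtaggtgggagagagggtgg
Eif3f: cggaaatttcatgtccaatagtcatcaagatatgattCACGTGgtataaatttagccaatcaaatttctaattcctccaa
Eif4g1: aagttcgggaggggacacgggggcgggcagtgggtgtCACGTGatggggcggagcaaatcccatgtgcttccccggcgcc

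Promoter windows, from 250 bases before to 50 bases after an annotated start, were at hand for 44 of the 56 genes. The E-box, searched on both strands, stood in 10 of these 44, against 8.09% of 27025 genes with a promoter window. Of the 10, 7 rose after acute Doxo, 1 (*Eif4e*) fell and 2 (*Eif1b* and *Eif4g1*) did not pass the test. Of the 1233 tested genes with the E-box, 38.8% rose, and of the whole family 41 of 54 rose. The core CGGAAG, bound by ETS-family factors, stood in 23 of the 44, against 18.8% of genes. Of these 23, 16 rose, 2 fell and 5 did not pass, and 39.8% of the 3518 tested genes with this core rose. TGATGNAA, the element bound by the stress factor ATF4, stood in *Eif2s3x* alone among the 44, against 4.51% of genes. A match says only that these letters are present.

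Total counts ran from 32409622 to 52102850 per acute heart and from 17769886 to 23862287 per chronic heart. Levels are given as CPM (counts scaled to a common library total) after TMM normalisation, and a gene was called when the Benjamini-Hochberg adjusted p of edgeR's quasi-likelihood test was under 0.05. The labels number the hearts of a group as replicates. Some hearts stood apart from their group. The heart Doxo replicate 6 of the acute study lay at 0.0544 on an axis of all tested genes where the mean of Ctrl is 0 and the mean of all 13 Doxo hearts is 1. The other Doxo hearts ran from 0.452 to 1.45 and the Ctrl hearts from -0.0539 to 0.0649. For 50 of the 54 genes its level lay inside the range of the Ctrl hearts, as it did for 88.6% of all tested genes. Its label was kept. The counts of called genes in comparisons that use the Doxo hearts, and the leading changes of Doxo vs. Ctrl, are also given without it. In the chronic study, the hearts Ctrl replicate 1, Doxo replicate 2 and Doxo-NMN replicate 4 were the far value of their group (Dixon's test) in 11.2%, 12.6% and 7.15% of all tested genes, and each other chronic heart in at most 1.15%.

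After acute Doxo, most of the family rose. In Doxo vs. Ctrl, 41 of the 54 tested genes were higher and 4 were lower, and 9 did not pass the test. Over all 14240 tested genes, 34.8% were called higher and 33.3% lower. The median log2 fold change was 0.39 over the family and 0.00 over all tested genes. Changes of at least 1.5-fold were seen in 18 genes, all higher, where the whole table held 14.7% higher and 15.4% lower at that size. The counts stayed at 41 and 4 without Doxo replicate 6, when 35.7% and 34.2% of all tested genes were called higher and lower. In 16 genes every Doxo heart but replicate 6 lay above every Ctrl heart, and in 2 genes below. Over all tested genes these shares were 7.72% and 6.5%. In bulk tissue, fewer cells of a type and less RNA per cell cannot be told apart.

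**Figure D1:**
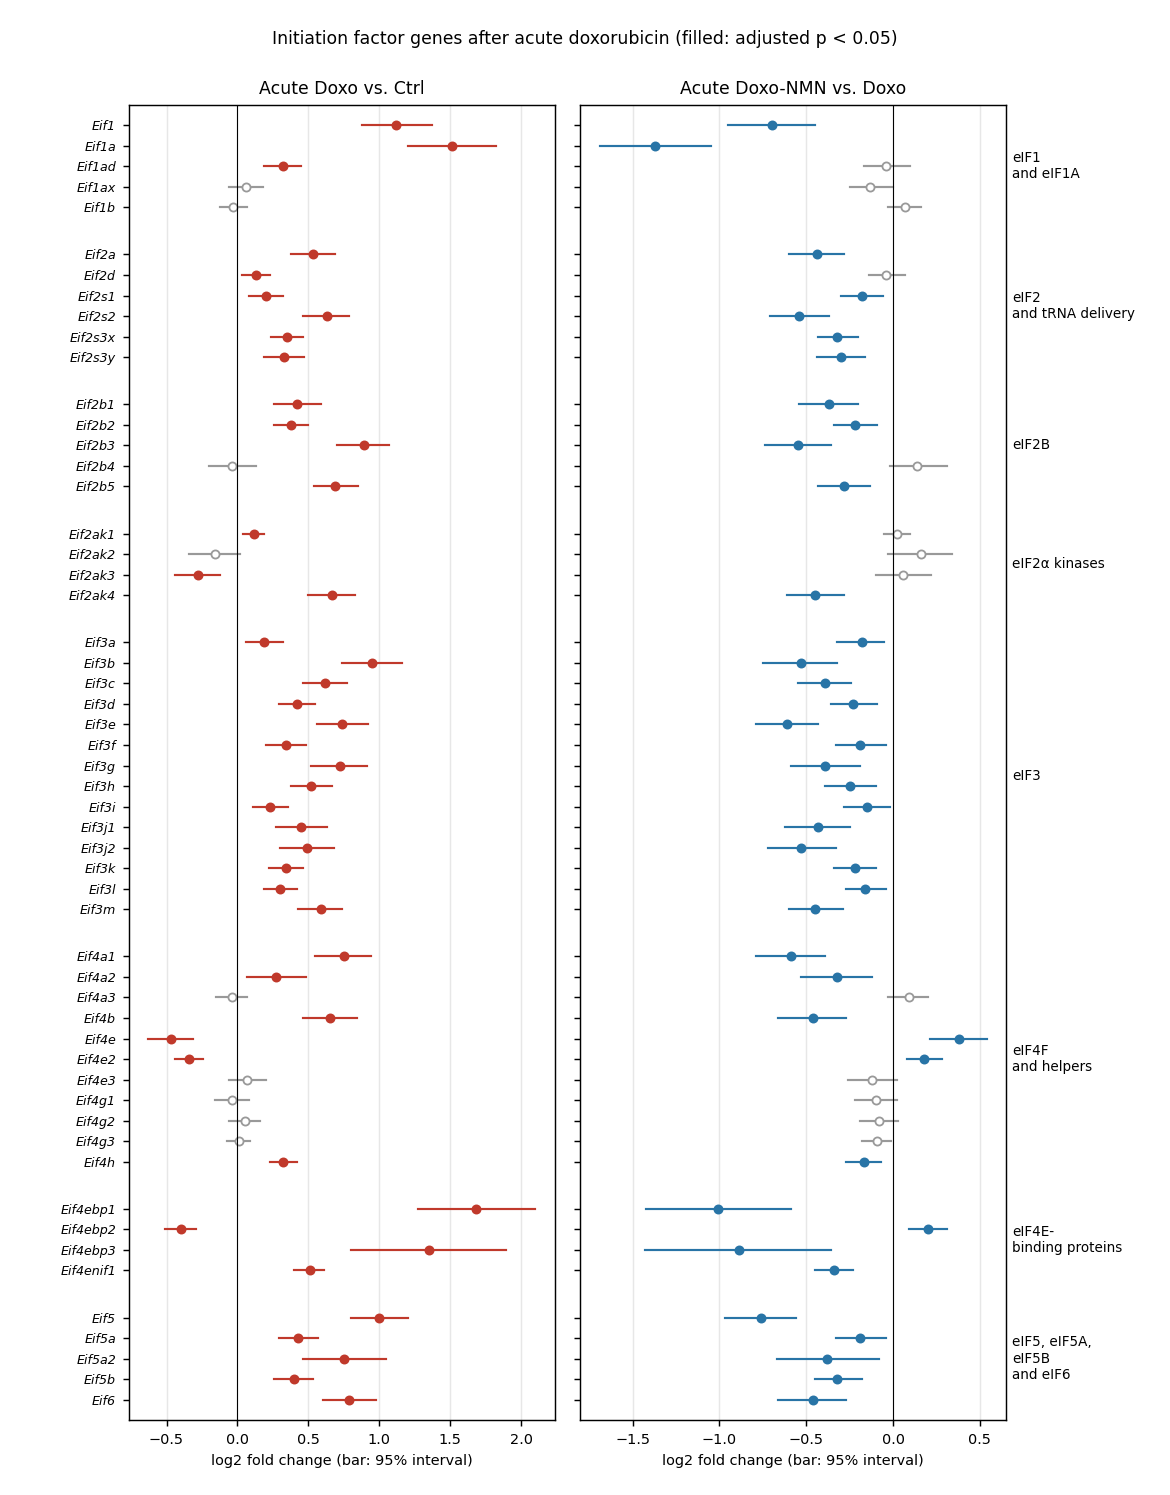
The log2 fold changes of the 54 tested genes in the acute study are drawn by complex, Doxo vs. Ctrl on the left and Doxo-NMN vs. Doxo on the right, with 95% intervals. Filled points passed the test. Nearly all filled points lie right of 0 on the left (41 of 45) and left of 0 on the right (38 of 41).

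The largest increases were in the regulators and scanning factors. *Eif4ebp1* (build GRCm38, chr8:27260329-27276674, plus strand) encodes 4E-BP1, the repressor that binds eIF4E and that mTOR inactivates. Its level in the Ctrl hearts was 33.9 CPM at the lowest, 37.4 at the median and 41.2 at the highest. In the Doxo hearts these values were 34.5, 130 and 182 CPM. The low value was that of replicate 6, and the other 12 Doxo hearts lay at 47.2 CPM or more, above every Ctrl heart. *Eif4ebp1* rose by 1.68 on the log2 scale (SE 0.206, edgeR adjusted p = 8.58e-09), and by 1.77 without replicate 6.

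The other genes of this group did not all move with it. *Eif4ebp2*, the related repressor, fell by 0.40 (SE 0.0551, edgeR adjusted p = 7.82e-08), from a median of 115 CPM in Ctrl to 85.9 CPM in Doxo. In 12 of 13 Doxo hearts its level was below every Ctrl heart, replicate 6 again being the exception. *Eif4ebp3* rose by 1.35 (SE 0.268), at a level of only 0.228 CPM at the Ctrl median and 0.576 CPM at the Doxo median, and 64.2% of its 75-base stretches occur also in other annotated transcripts, mainly of an overlapping readthrough gene, so its counts are uncertain. *Eif4enif1*, which encodes the transporter that takes eIF4E into the nucleus, rose by 0.51 (SE 0.0515) and was the only family member in which all 13 Doxo hearts, replicate 6 included, lay above all 14 Ctrl hearts, at 47.6 to 80.9 CPM against 40 to 46.6 CPM.

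The gene of the partner of these repressors moved the other way from *Eif4ebp1* and the same way as *Eif4ebp2*. *Eif4e* (chr3:138526179-138559696, plus strand), the cap-binding subunit, had 114, 131 and 152 CPM as the lowest, median and highest Ctrl values. The Doxo hearts had 68.5, 95 and 140 CPM. The highest was replicate 6, and the other 12 lay at 111 CPM or less, below every Ctrl heart. *Eif4e* fell by 0.47 on the log2 scale (SE 0.0803, edgeR adjusted p = 3.45e-06), or by 0.53 without replicate 6, and its relative *Eif4e2*, a weak cap binder, fell by 0.34 (SE 0.0498).

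The rest of eIF4F was split. *Eif4a1* rose by 0.75 (SE 0.0952, edgeR adjusted p = 1.83e-08), from a Ctrl range of 135 to 167 CPM to a Doxo range of 162 to 375 CPM, and by 0.79 without replicate 6. The helicase cofactors *Eif4b* and *Eif4h* rose by 0.65 (SE 0.0948) and 0.32 (SE 0.0494). The second helicase gene, *Eif4a2*, rose by 0.27 (SE 0.1). The scaffold genes did not pass the test: *Eif4g1* had a log2 fold change of -0.04 (95% interval -0.16 to 0.08), *Eif4g2* 0.05 (-0.06 to 0.16) and *Eif4g3* 0.01 (-0.07 to 0.09). Neither did *Eif4a3* (-0.04) or *Eif4e3* (0.07). In all, 4 of the 11 tested genes of eIF4F and its helpers were higher and 2 lower. Over all tested genes, 34.8% were higher and 33.3% lower. Some reads of *Eif4a1* cannot be told from those of other annotated genes, since 25.4% of its 75-base stretches are shared.

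**Figure D2:**
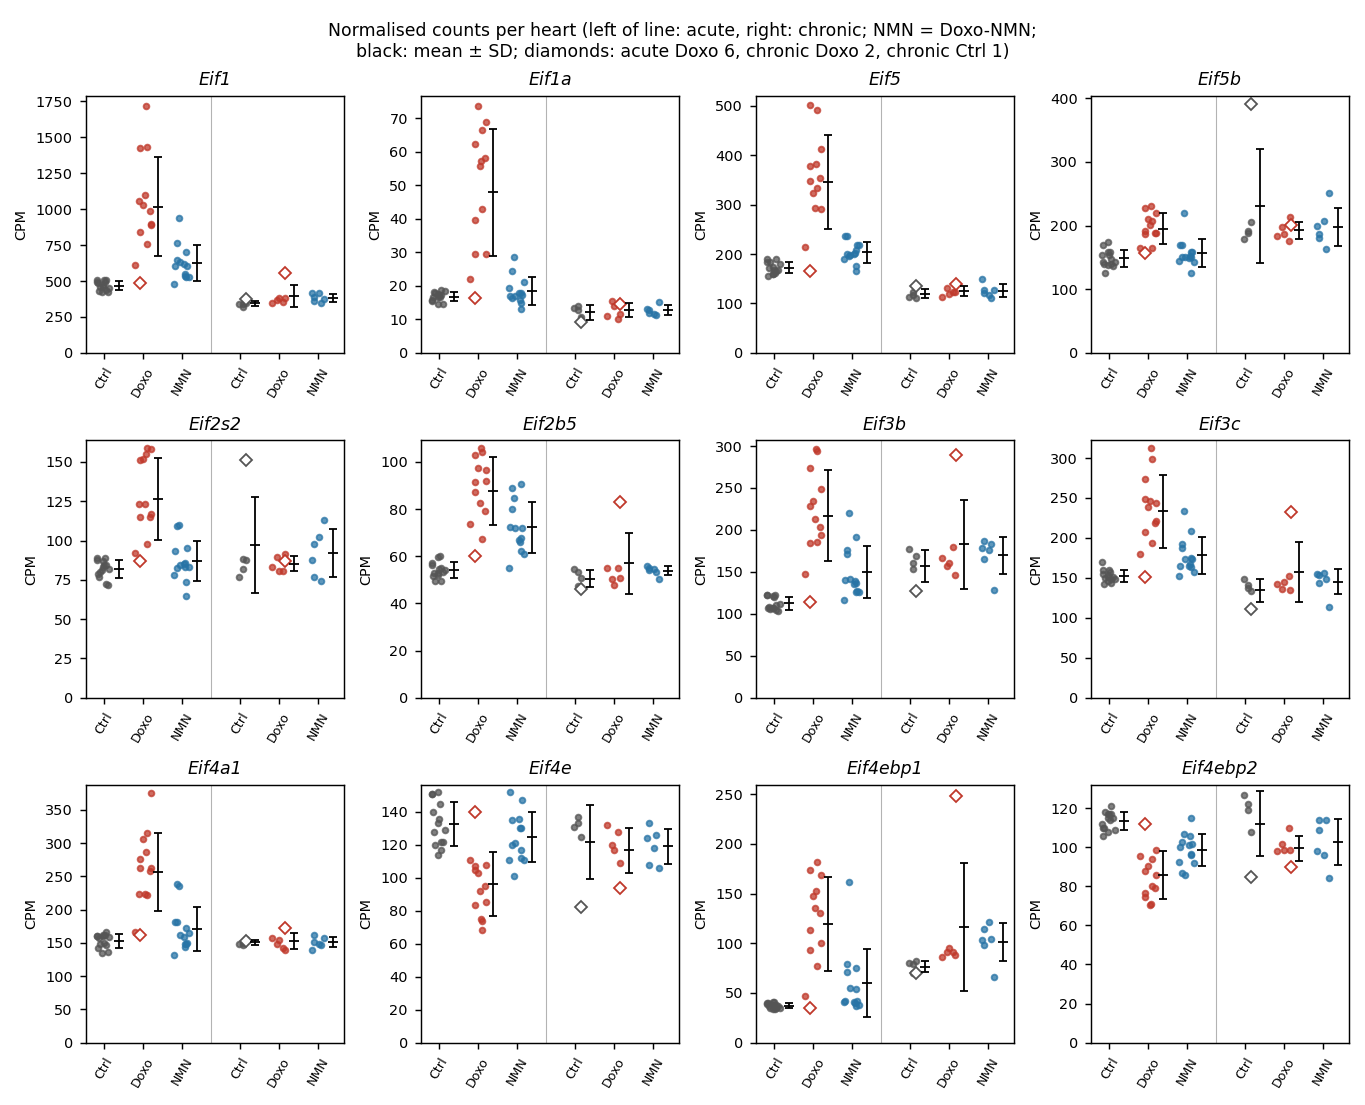
Normalised counts (CPM, linear axes from 0) are plotted for each heart of the acute groups, left of the line, and the chronic groups, right of it, for 12 genes. Black marks give mean ± SD and diamonds mark acute Doxo replicate 6, chronic Doxo replicate 2 and chronic Ctrl replicate 1. The acute Doxo hearts of *Eif4ebp1* spread from 34.5 to 182 CPM while those of *Eif4e* drop to 68.5 CPM.

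Among the factors that scan for the start codon, *Eif1* (chr11:100319885-100322096, plus strand), which keeps the ribosome in an open state until a start codon is met, had the highest level of the family per kilobase of exon, 223 CPM per kb at the mean of the acute Ctrl hearts. It had a Ctrl median of 467 CPM (423 to 510) and a Doxo median of 989 CPM (485 to 1721). Only replicate 6 overlapped the Ctrl hearts. Of the 75-base stretches of *Eif1*, 15.3% are shared with other annotated genes. *Eif1* rose by 1.12 on the log2 scale (SE 0.123, edgeR adjusted p = 9.50e-10), and by 1.19 without replicate 6.

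The eIF1A genes differed from each other. *Eif1a* had a Ctrl median of 16.9 CPM (14.5 to 18.6) and a Doxo median of 55.7 CPM (16.4 to 73.5), a rise of 1.51 on the log2 scale (SE 0.156, edgeR adjusted p = 3.39e-10) that was 1.59 without replicate 6. *Eif1ax*, the X-linked gene for eIF1A, had a Ctrl median of 76.4 CPM and a Doxo median of 78.0 CPM, with a log2 fold change of 0.06 (95% interval -0.06 to 0.18). *Eif1b*, the close relative of *Eif1*, had a log2 fold change of -0.03 (-0.12 to 0.07). In each of these pairs 1 gene was called higher and the other did not pass the test.

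*Eif5*, the GTPase-activating protein of eIF2, rose by 1 on the log2 scale (SE 0.0990, edgeR adjusted p = 1.53e-10), from a Ctrl median of 170 CPM (156 to 189) to a Doxo median of 348 CPM (166 to 501), and by 1.07 without replicate 6. *Eif6*, which keeps the large ribosomal subunit from joining early, rose by 0.79 (SE 0.0954), with 21.3 CPM at the Ctrl median and 36.7 CPM at the Doxo median. *Eif5b*, the GTPase of subunit joining, rose by 0.40 (SE 0.0649) and *Eif5a* by 0.43 (SE 0.0706). *Eif5a2*, at 1.96 CPM in Ctrl, rose by 0.75 (SE 0.144). All 5 genes of this group were called higher.

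All 14 eIF3 genes were called higher, by 0.19 to 0.95 on the log2 scale with a median of 0.47. eIF3 is the largest initiation factor and holds the small ribosomal subunit together with eIF4G. *Eif3b*, a core subunit, rose most, by 0.95 (SE 0.104, edgeR adjusted p = 1.01e-09), with a Ctrl median of 110 CPM (103 to 122) and a Doxo median of 213 CPM (114 to 297), and by 1 without replicate 6. *Eif3e* and *Eif3g* rose by 0.74 and 0.72, and *Eif3c* by 0.62. *Eif3a*, the scaffold subunit, rose least, by 0.19 (SE 0.0648, edgeR adjusted p = 0.0107), from 252 ± 13.6 CPM (SD, n = 14) to 287 ± 34.6 CPM (SD, n = 13). *Eif3j1* and *Eif3j2* share much of their sequence, 47.3% and 87.4% of their 75-base stretches, so their counts cannot be told apart with certainty. *Eif3d* shares 34.2%, mainly with a gene on the opposite strand.

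The genes of eIF2 itself rose by 0.20 to 0.63. The beta subunit gene *Eif2s2* rose by 0.63 (SE 0.0830), from a Ctrl median of 82.6 CPM to a Doxo median of 123 CPM, and the alpha subunit gene *Eif2s1* by 0.20 (SE 0.0594). The gamma subunit has an X-linked and a Y-linked gene in mice: *Eif2s3x* rose by 0.35 (SE 0.0549) and *Eif2s3y* by 0.33 (SE 0.0674). Of the 75-base stretches of *Eif2s3x*, 34.2% are shared with other annotated genes, so some of its reads cannot be told from theirs. *Eif2a* and *Eif2d*, which encode other proteins that deliver initiator tRNA, rose by 0.53 and 0.13. All 6 genes of this group were called higher.

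In eIF2B, 4 of 5 genes were called higher. *Eif2b5*, the catalytic subunit, rose by 0.69 (SE 0.0745, edgeR adjusted p = 6.82e-10), with a Ctrl range of 49.4 to 60.2 CPM and a Doxo range of 60.2 to 106 CPM, and *Eif2b3* rose by 0.89 (SE 0.0914). Without replicate 6 the rises were 0.73 for *Eif2b5* and 0.93 for *Eif2b3*. *Eif2b4*, also part of the complex, had a log2 fold change of -0.04 (95% interval -0.20 to 0.13).

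The kinases of eIF2alpha moved in different directions. *Eif2ak4*, which encodes GCN2, the sensor of uncharged tRNA, rose by 0.67 (SE 0.0807, edgeR adjusted p = 7.28e-09), from a Ctrl median of 10.1 CPM to a Doxo median of 17.6 CPM, and by 0.70 without replicate 6. *Eif2ak3*, which encodes PERK of the endoplasmic reticulum, fell by 0.28 (SE 0.0775), from 10.6 to 8.80 CPM at the median. *Eif2ak1* (HRI, the heme-regulated kinase) rose by 0.12 (SE 0.0365), and *Eif2ak2* (PKR, the sensor of double-stranded RNA) had a log2 fold change of -0.16 that did not pass the test (95% interval -0.34 to 0.02).

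**Figure D3:**
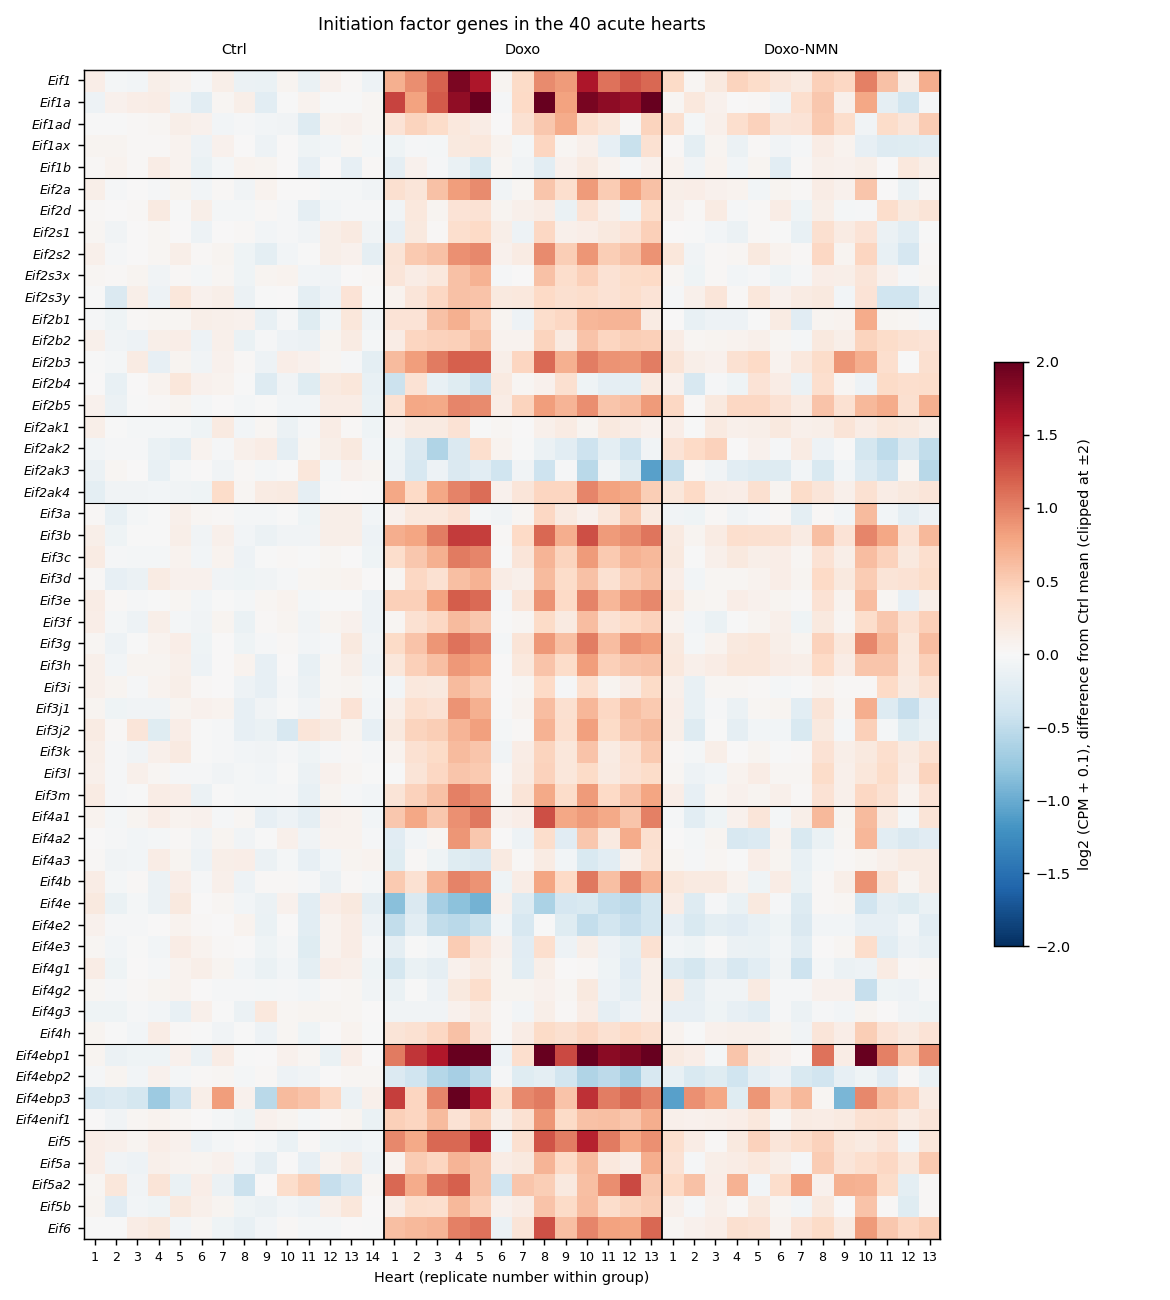
Each column is an acute heart and each row a tested gene, ordered by complex. The colour gives log2 (CPM + 0.1) minus the Ctrl mean, clipped at ±2. The Doxo column of replicate 6 is near white, in contrast to the other 12, and the Doxo-NMN column of replicate 10 is the darkest of its group.

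Doxo hearts also varied more among themselves. Without replicate 6, the SD of log2 CPM was larger in Doxo than in Ctrl in 51 of the 54 genes, as in 88.8% of all tested genes, with a median SD of 0.235 in Doxo against 0.0940 in Ctrl and 0.176 in Doxo-NMN.

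Most of these genes were lower in the hearts of mice given NMN than in Doxo hearts. In acute Doxo-NMN vs. Doxo, 38 of the 54 genes were lower and 3 were higher (*Eif4e*, *Eif4e2* and *Eif4ebp2*), with a median log2 fold change of -0.26, where 27.4% of all tested genes were called lower and 25.7% higher. Without Doxo replicate 6 the counts stayed at 38 and 3, with a median log2 fold change of -0.30. By at least 1.5-fold, with all hearts kept, 7 were lower, against 8.88% of all tested genes, and none higher, against 8.17%. With library totals in place of TMM factors 27 were lower and 5 higher, and over all tested genes 2658 were lower and 4420 higher, against 3898 and 3656 with TMM. This comparison uses the same Doxo hearts as Doxo vs. Ctrl, so the values of both are given side by side and no relation between them is drawn.

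*Eif1a* fell most in Doxo-NMN vs. Doxo, by 1.37 (SE 0.159, edgeR adjusted p = 1.85e-07), to a Doxo-NMN median of 17.3 CPM (13 to 28.6). Its Doxo-NMN hearts had a log2 fold change of 0.14 against Ctrl that did not pass the test. *Eif4ebp1* fell by 1.01 (SE 0.207, edgeR adjusted p = 0.000136), to a Doxo-NMN median of 42.1 CPM (36.4 to 162), and *Eif5* by 0.76 (SE 0.101), to a median of 201 CPM (166 to 236). *Eif1* fell by 0.70 (SE 0.125), to a median of 608 CPM (479 to 941). All 14 eIF3 genes were called lower, by 0.15 to 0.61, as were all 5 genes of the eIF5, eIF5A, eIF5B and eIF6 group.

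*Eif4e* was higher in Doxo-NMN than in Doxo by 0.38 (SE 0.0816, edgeR adjusted p = 0.000217), with a Doxo-NMN median of 121 CPM (101 to 152). *Eif4ebp2* was higher by 0.20 (SE 0.0559). *Eif2ak4* was lower by 0.45 (SE 0.0821), and the other 3 kinases did not pass the test.

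Doxo-NMN hearts also differed from Ctrl. In Doxo-NMN vs. Ctrl, 19 genes were higher and 3 (*Eif2ak3*, *Eif4e2* and *Eif4ebp2*) lower, against 15% and 11.1% of all tested genes. *Eif4ebp1* was higher by 0.68 (SE 0.203, edgeR adjusted p = 0.0120), *Eif1* by 0.42 (SE 0.122), *Eif2b5* by 0.42 (SE 0.0744) and *Eif3b* by 0.42 (SE 0.103). *Eif4ebp1* alone reached 1.5-fold, where 3.31% of all tested genes were higher at that size and 3.79% lower. None of the 6 genes of the eIF2 group passed the test, with log2 fold changes of 0.02 to 0.09. The Doxo-NMN heart replicate 10 held 162 CPM of *Eif4ebp1* and 941 CPM of *Eif1*, the highest of its group for both, and without it the number of higher genes went from 19 to 11. Within hearts low in the atrial marker gene *Myl4* (under 100 CPM), and within hearts high in it, 1 gene was higher in each, where 4.43% and 4.78% of all tested genes were called higher, against 15% over all hearts.

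Ratios within a heart do not depend on its total count. In the acute study, the log2 ratio of *Eif4ebp1* to *Eif4e* counts rose from -1.83 ± 0.139 (SD, n = 14) in Ctrl to 0.20 ± 0.941 (n = 13) in Doxo, a 4.08-fold shift (two-sided permutation test, adjusted p = 0.0002 over 30 tests of 5 pairs, from p = 2e-05, the smallest that the 100000 resamples can give). In Doxo-NMN its median was -1.45 (-1.86 to 0.68). Both genes had already been called in these hearts, in opposite directions, so the test of their ratio is not separate evidence. The same holds for *Eif4ebp1* and *Eif4ebp2* below. *Eif4ebp1* counts were above *Eif4e* counts in 9 of the 13 Doxo hearts and in 0 of the 14 Ctrl hearts. These counts are not scaled by length, and the exons of *Eif4ebp1* span 2196 bases against 6008 for *Eif4e*. Per kilobase of exon, the Ctrl means were 17 and 22.1 CPM, so the crossing of counts does not rank the RNA levels. The ratio differed between Doxo-NMN and Doxo by -1.40 (permutation test, adjusted p = 0.0041). Without Doxo replicate 6 these differences of *Eif4ebp1* to *Eif4e* were 2.21 and -1.59.

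The ratio of *Eif4ebp1* to *Eif4ebp2* moved alike, from a Ctrl range of -1.78 to -1.42 to a Doxo range of -1.70 to 1.22, by 1.95 on the log2 scale (permutation test, adjusted p = 0.0002), and by 2.12 without replicate 6. *Eif4a1* to *Eif4a2* went from -1.28 ± 0.115 to -0.80 ± 0.373, a difference of 0.48 (permutation test, adjusted p = 0.00135). Its difference of -0.27 between Doxo-NMN and Doxo did not pass the permutation test (adjusted p = 0.141). *Eif4g1* to *Eif4g3* stood at 2.96 ± 0.160 in Ctrl and 2.90 ± 0.0968 in Doxo (permutation test, adjusted p = 0.636). *Eif2s3x* to *Eif2s3y* stood at -0.30 in both groups (permutation test, adjusted p = 0.996).

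**Figure D4:**
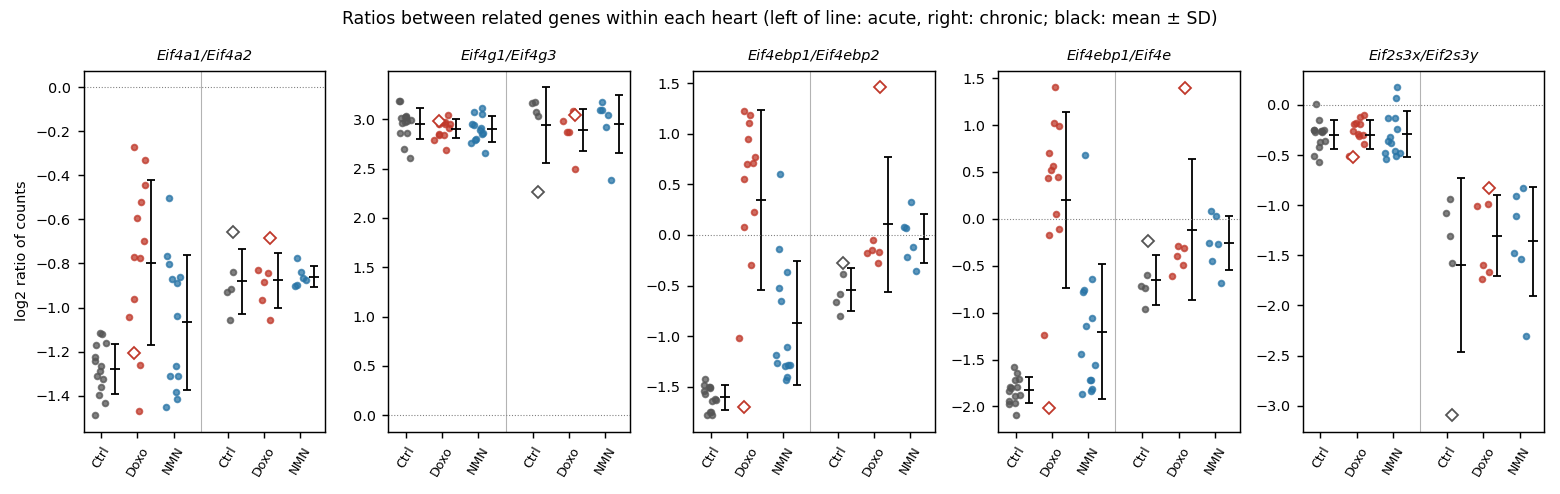
The log2 ratio of counts of 5 gene pairs is plotted for each heart, acute groups left of the line and chronic groups right of it, with mean ± SD in black and the same hearts marked by diamonds. In the acute Doxo group *Eif4ebp1* to *Eif4e* reaches 1.41, and *Eif4g1* to *Eif4g3* stays between 2.69 and 3.05.

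In the chronic study no family member passed the test in any comparison. In Doxo vs. Ctrl, 34 of the 54 log2 fold changes were positive, with a median of 0.06, where 49.9% of all tested genes were positive with a median of 0.00. Doxo replicate 2 held the far highest value of its group in 17 of the 54 genes (31.5%) and the far value in 12.6% of all tested genes. In this comparison 0.0602% of 14960 tested genes were called. The shares called were 0.0401% in Doxo-NMN vs. Ctrl and 0% in Doxo-NMN vs. Doxo. At an unadjusted p under 0.05 edgeR passed 1 member in Doxo vs. Ctrl, where 7.85% of all tested genes passed, and 0 in Doxo-NMN vs. Ctrl and in Doxo-NMN vs. Doxo, where 4.73% and 2.95% passed, and DESeq2 called no member in any.

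That member was *Eif4ebp1*, with Ctrl hearts at 70.3, 79.4 and 82.4 CPM (lowest, median, highest) and Doxo hearts at 86.6, 91.2 and 248 CPM. The groups did not overlap, although the highest value, that of replicate 2, lay far from the next at 95.6 CPM. The log2 fold change was 0.61 (95% interval 0.12 to 1.10, edgeR adjusted p = 0.571), and 0.25 without replicate 2. *Eif3h* was the other member whose groups did not overlap, with 159 to 170 CPM in Ctrl and 170 to 281 CPM in Doxo, where 0.922% of all tested genes did not overlap in either direction. The ratio of *Eif4ebp1* to *Eif4ebp2* ran from -0.798 to -0.274 in Ctrl and from -0.273 to 1.462 in Doxo. The groups did not overlap, by a gap in the last digit only (exact permutation test, p = 0.00433, adjusted p = 0.0162, the smallest p this design can give). The highest Ctrl ratio was that of replicate 1. The highest Doxo ratio was that of replicate 2, with the next at -0.047, and both of these hearts stood apart from their groups. Against Ctrl the ratio in Doxo-NMN differed by 0.51 (exact permutation test, adjusted p = 0.0289).

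The difference between the studies was tested as such. In a fit of both tables, the log2 fold changes of Doxo vs. Ctrl were compared with their sign. The acute value was higher than the chronic one in 24 of 54 genes and lower in 0. Of 14965 tested genes, 11% were higher and 8.33% lower. A lower value includes a stronger fall in the acute study. *Eif1a* differed by 1.42 (SE 0.290, edgeR adjusted p = 0.00305), *Eif5* by 0.94 (SE 0.185) and *Eif4ebp1* by 1.06 (SE 0.329, adjusted p = 0.0231). *Eif4e* had a difference of -0.41 that did not pass (SE 0.162, edgeR adjusted p = 0.0648). Without acute Doxo replicate 6, 29 genes were higher and 3 lower, these being *Eif4e*, *Eif4e2* and *Eif4ebp2*, which fell after acute Doxo. Without chronic Ctrl replicate 1 and chronic Doxo replicate 2, 32 genes had a higher log2 fold change in the acute study and *Eif4ebp1* differed by 1.47. Leaving these hearts out was a choice made after the data were seen. Dose schedule, time, age, breeder and sequencing site all differ between the studies and cannot be told apart.

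**Figure D5:**
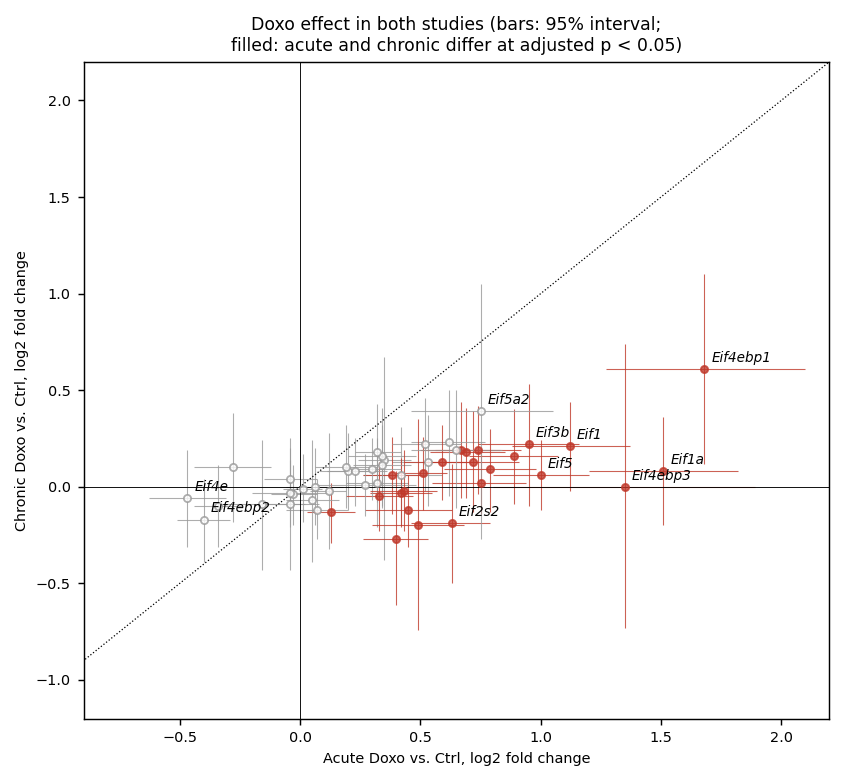
The log2 fold change of Doxo vs. Ctrl in the chronic study is plotted against that in the acute study for the 54 genes, with 95% intervals. Filled points differ between the studies at an adjusted p under 0.05, and the dotted line marks equal effects. All 24 filled points lie below that line.

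Other genes of protein synthesis were read from lists of named regulators and of elongation and release factors. Of 29 regulators and partners of initiation, 17 were higher and 6 lower in acute Doxo vs. Ctrl, against 34.8% and 33.3% of all tested genes, with a median log2 fold change of 0.19. *Ppp1r15a*, which encodes the stress-induced subunit of the eIF2alpha phosphatase, rose by 1.57 (SE 0.160, edgeR adjusted p = 2.63e-10), from 27.6 ± 5.16 CPM (SD, n = 14) to 82.1 ± 33.9 CPM (n = 13). The helicase gene *Ddx3x* rose by 0.84, and was at 196 ± 16.3 CPM in Doxo-NMN against 195 ± 8.56 CPM in Ctrl. *Cyfip1*, which encodes a partner of eIF4E, fell by 0.44, and *Mtif2*, the mitochondrial initiation factor, fell by 0.68. Of 11 elongation and release factors 6 were higher and 2 lower, read against the same shares. *Eef2* rose by 0.78, from 1347 ± 51.3 to 2312 ± 558 CPM, and *Etf1* by 0.47, while *Gspt1* fell by 0.14 and *Eef1e1* by 0.29.

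Markers of other cells moved with the acute groups. The summed level of 5 red blood cell markers ran from 437 to 4311 CPM over the Ctrl hearts, from 1.19 to 338 CPM over the Doxo hearts and from 0.209 to 2.81 CPM with NMN. That of 4 neutrophil markers ran from 1.53 to 4.77 CPM over the Ctrl hearts, from 2.99 to 241 CPM over the Doxo hearts and from 4.58 to 27.2 CPM with NMN. The sum of 5 atrial cardiomyocyte markers had a median of 2738 CPM in Ctrl (44.4 to 5555). It was 56.1 CPM in Doxo (32.9 to 1838) and 59.8 CPM in Doxo-NMN (27.3 to 3875), with wide overlap between the groups. Of these 5, 1 was called lower in Doxo vs. Ctrl, against 33.3% of all tested genes, and 0 in Doxo-NMN vs. Ctrl, against 11.1%. The 7 ventricular cardiomyocyte markers had a median sum of 65207 CPM in Ctrl (57428 to 73420), 53479 CPM in Doxo (28913 to 74771) and 71293 CPM in Doxo-NMN (36937 to 82910). Of these 7, 5 were called lower and 1 higher in Doxo vs. Ctrl, and 5 were called higher and 1 lower in Doxo-NMN vs. Doxo. Over all tested genes, 33.3% were lower and 34.8% higher in the first comparison. In the second, 25.7% were higher and 27.4% lower. The sums of the 5 fibroblast, 5 endothelial, 6 macrophage and 5 lymphocyte markers had lower medians in Doxo than in Ctrl. In Doxo vs. Ctrl, 3 fibroblast, 2 endothelial and 3 macrophage markers were called lower, and 1 of each of these lists higher. Of the lymphocyte markers only 2 were tested, and both were called lower. No marker of any list was at 0 throughout a group. The part of these cells in the family's changes was not tested. Within low-*Myl4* hearts (6 Ctrl, 8 Doxo) 37 genes were higher and 4 lower in Doxo vs. Ctrl, against 28.5% and 26.3% of all tested genes. Within high-*Myl4* hearts (8 Ctrl, 5 Doxo) 38 were higher and 3 lower, against 30.6% and 29.6%.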

How the data were processed

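Poly(A) RNA of 57 hearts was sequenced from a single end. Per the labels and the study's methods, the authors aligned reads to mm10 with STAR (2.7.3a in the submitters' processing notes) and deposited raw featureCounts 2.0.0 counts per gene. Strand setting, multimapping and annotation are not given in the sources used here. The median share of even numbers among low counts was 73.6% in the acute and 40.3% in the chronic table, so counts divided by 2 were an alternative. Genes too low for edgeR's filterByExpr were left out (14240 and 14960 kept). edgeR 4.0.16 (R 4.3.3) fitted all 3 groups of a study together with TMM and quasi-likelihood tests, with Benjamini-Hochberg adjustment over all genes tested. Log2 ratios of counts (0.5 added) were compared by two-sided permutation tests in scipy 1.17.1. P-values weigh a difference between groups against the spread between hearts, and intervals give the uncertainty of that difference. Coordinates and shared 75-base stretches come from GENCODE vM21 on GRCm38. The members and lists were chosen with earlier results of these data known. The text gives values for 30 preset members and for the 2 with the smallest adjusted p per complex and direction. It also gives them for members past 1.5-fold in the acute study, and for *Eif4h*, *Eif4a3* and *Eif4e3* of the eIF4F group. Others appear only by count, range or as the exception to a count. Library scaling, filter, DESeq2 1.42.0, replicate block, hearts split by *Myl4* and hearts left out were tried as alternatives, and fits were tested on simulated data. No deposited column was left out.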

Additional observations from a re-analysis of the deposited data

Results flagged for a closer look

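In the chronic study 20 of 120 checks of a named gene in a group found a heart far from the others, where chance gives about 1 in 20 and the same check marked 12.7% of cases over all tested genes. In Doxo replicate 2 the far values were the highest of the group: *Eif1* 554 CPM, *Eif2b3* 21.8, *Eif2b5* 83.0, *Eif2d* 28.4, *Eif3a* 337, *Eif3b* 289, *Eif3c* 233, *Eif3e* 92.1, *Eif3g* 115, *Eif3m* 81.0, *Eif4b* 388, *Eif4ebp1* 248 and *Eif6* 55.8 CPM. The other 5 Doxo hearts held 344 to 381 CPM of *Eif1* and 146 to 180 CPM of *Eif3b*. In Ctrl replicate 1, *Eif2s2* (151 CPM) and *Eif5b* (391 CPM) were far above, and *Eif2s1* (23.3 CPM) and *Eif4e* (82.4 CPM) far below, the other 4 hearts. In Doxo-NMN replicate 4, *Eif3b* (128 CPM), *Eif3c* (114 CPM) and *Eif5a* (276 CPM) were far below the others.

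The Doxo effect differed between the acute and the chronic study, by edgeR's test of the difference itself, in 20 of 40 named genes. In each case the signed log2 fold change was higher in the acute study. Of all tested genes, 11% were higher and 8.33% lower. Some of the 40 were named for a large acute change, so this count is a description. On the log2 scale the differences among regulators and scanning factors were 1.42 for *Eif1a*, 1.34 for *Eif4ebp3*, 1.06 for *Eif4ebp1*, 0.94 for *Eif5*, 0.91 for *Eif1* and 0.43 for *Eif4enif1*. They were 0.81 for *Eif2s2*, 0.38 for *Eif2s3y*, 0.26 for *Eif2d*, 0.72 for *Eif2b3*, 0.51 for *Eif2b5* and 0.47 for *Eif2ak4*. Among the eIF3 genes they were 0.73 for *Eif3b*, 0.58 for *Eif3g*, 0.55 for *Eif3e* and 0.45 for *Eif3m*. They were 0.72 for *Eif4a1*, 0.70 for *Eif6*, 0.66 for *Eif5b* and 0.44 for *Eif5a*. Without chronic Ctrl replicate 1 the difference was 0.38 for *Eif5b*, and those of *Eif2ak4* (0.41, edgeR adjusted p = 0.103) and *Eif4ebp3* (1.29, edgeR adjusted p = 0.059) did not pass. With chronic Doxo replicate 2 left out as well, *Eif5b* was at 0.40, *Eif2ak4* did not pass (edgeR adjusted p = 0.0882) and *Eif4ebp3* passed (edgeR adjusted p = 0.0441).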

How the results depend on the processing

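With a change of at least 1.5-fold required, acute Doxo vs. Ctrl gave 18 higher and 0 lower genes, Doxo-NMN vs. Doxo 0 higher and 7 lower, and Doxo-NMN vs. Ctrl 1 higher and 0 lower. Library totals alone gave 5 higher genes in Doxo-NMN vs. Doxo. In Doxo-NMN vs. Ctrl, the low-*Myl4* hearts gave 1 higher and 0 lower genes and the high-*Myl4* hearts 1 higher. With each heart left out in turn, that comparison gave 11 to 20 higher genes, the lowest without Doxo-NMN replicate 10, and the difference between studies gave 0 to 3 lower genes, with 3 without acute Doxo replicate 6 and 1 without chronic Doxo replicate 2. The cause was not tested. The *Eif4a1* to *Eif4a2* ratio in acute Doxo-NMN vs. Doxo passed an unadjusted permutation threshold in 8 of the fits with a heart left out, at -0.33 to -0.29, and ran from -0.33 to -0.23 over all of them. In the chronic study, without Ctrl replicate 1 the *Eif4g1* to *Eif4g3* ratio passed at -0.22 (-0.22 to 0.03 over all hearts left out) and *Eif4ebp1* to *Eif4e* at 0.64, or 0.63 without Doxo replicate 3 (0.23 to 0.64 over all hearts left out). Replicate numbers were not shown to pair hearts: same-numbered hearts correlated at a median of 0.06 (18 of 39 pairs above 0.1) in the acute and 0.02 (4 of 16) in the chronic study, and 4 of 40 and 3 of 17 hearts correlated best with their own number. The replicate block gave 41 and 4 in acute Doxo vs. Ctrl, 3 and 37 in Doxo-NMN vs. Doxo, 16 and 3 in Doxo-NMN vs. Ctrl, and 0 in every chronic comparison. The 880 values of the named genes under an alternative came from acute Doxo vs. Ctrl and Doxo-NMN vs. Doxo. Doxo-NMN vs. Ctrl and the chronic study were not among them. Of the 880, 37 lost the call, 14 gained it, 0 changed sign with a call, and the rest kept direction and call. Low levels limit *Eif4ebp3* and *Eif5a2*.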
